A study of Mus musculus with 8 samples.

Results

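Centromere and kinetochore genes were examined in RNA sequencing counts of 8 Myc-CaP tumors. The list held 34 gene names, and a gene was taken as a member when its listed gene name equalled one of them. Of these names, 33 were found among the 38115 genes listed, all 33 are annotated as protein coding, and all 33 had enough counts to be tested with 17104 genes in all. Spdl1, the remaining name, is listed under its older symbol Ccdc99, so it was not counted as a member and its values are given separately.

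Myc-CaP is a prostate cancer cell line of the mouse from a tumor driven by MYC under a probasin promoter, and it grows in the FVB strain. Androgen sensitive (AS) or castrate resistant (CR) Myc-CaP cells had been implanted into the anterior prostate of male FVB mice, some intact and some castrated before surgery, and the primary tumors and the metastases that arose from them were taken. There were 2 tumors in each of 4 groups, called here primary AS, primary CR, metastatic AS and metastatic CR, and the tumors are numbered 1 and 2 within a group in the order of the record, which pairs no primary tumor with a metastasis. The labels do not say which line went into which host, where the metastases lay, which primary tumor a metastasis matches, or whether the 2 tumors of a group came from separate animals, so p-values measure only the spread between these tumors. AS and CR are each 1 transplanted cell line, and the library identifiers of the AS and of the CR tumors run in separate blocks, so line, host and handling cannot be told apart from phenotype.

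The centromere is the stretch of chromosome on which the kinetochore is built, the protein structure that holds a chromosome to the spindle during division. It is marked by nucleosomes that carry the histone variant CENP-A in place of histone H3, and a set of proteins called the constitutive centromere-associated network stays on that chromatin through the cell cycle. In mitosis the Mis12, Ndc80 and Ska complexes join that network to microtubules, and an outer layer, the corona, carries motor proteins and the platform for the spindle checkpoint. Many of these genes are transcribed mainly in G2 and mitosis, so in a tumor their RNA depends on how many cells are dividing as well as on the level in each cell. In bulk tumor RNA, fewer dividing cells and less RNA per cell cannot be told apart.

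The promoters of several members carry short elements known from cell cycle genes, and a few are shown because the RNA of several of these genes had a like order over the tumors. TTTGAA is the core of the cell cycle genes homology region (CHR), which is bound by the DREAM complex and by a complex that contains B-Myb. CCAAT is the core of the element bound by NF-Y. RefSeq promoter windows (GRCm38.p6, 250 bases before to 50 after the start) were found for 29 of the 33 members, and both strands were searched. TTTGAA was in 12 of 29 members (41.4%) and in 20.2% of the 27025 genes with a window, and CCAAT was in 20 of 29 members (69.0%) and in 41.1% of all genes. Both were in 10 of 29 members (34.5%) and in 7.97% of all genes. An E2F element, TTTCCCGC, was in 4 of 29 members (13.8%) and in 1.24% of all genes. Below are stretches of 200 bases, from 150 before to 50 after the start, written 5′ to 3′ on the gene's strand, with TTTGAA and CCAAT on either strand in capitals. The genes shown are examples. Cenpf, Cenpa, Ndc80 and Kntc1 varied strongly between tumors and carry TTTGAA, and Hjurp carries it and varied little. Nuf2 and Cenpb carry neither element in the stretch, and Nuf2 varied 7.24-fold. Cenpm, Cenph and Cenpe, not shown, varied 9.39-fold, 7.87-fold and 7.43-fold and had no TTTGAA in their windows, while Ska3, at 8.67-fold, had it.
Cenpf, chr1:189688037-189688236 (- strand): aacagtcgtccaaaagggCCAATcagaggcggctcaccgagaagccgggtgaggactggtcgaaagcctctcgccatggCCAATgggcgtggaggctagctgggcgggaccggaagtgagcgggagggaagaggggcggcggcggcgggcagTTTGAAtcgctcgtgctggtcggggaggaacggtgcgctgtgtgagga
Cenpa, chr5:30666736-30666935 (+ strand): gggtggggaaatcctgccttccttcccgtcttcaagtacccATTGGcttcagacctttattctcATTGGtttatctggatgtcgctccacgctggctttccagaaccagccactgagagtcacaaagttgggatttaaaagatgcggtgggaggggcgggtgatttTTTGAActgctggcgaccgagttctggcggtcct
Ndc80, chr17:71526808-71527007 (- strand): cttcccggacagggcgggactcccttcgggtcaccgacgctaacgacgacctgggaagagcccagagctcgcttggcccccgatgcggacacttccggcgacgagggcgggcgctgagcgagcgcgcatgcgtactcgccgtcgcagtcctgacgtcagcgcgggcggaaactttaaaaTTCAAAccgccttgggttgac
Kntc1, chr5:123749576-123749775 (+ strand): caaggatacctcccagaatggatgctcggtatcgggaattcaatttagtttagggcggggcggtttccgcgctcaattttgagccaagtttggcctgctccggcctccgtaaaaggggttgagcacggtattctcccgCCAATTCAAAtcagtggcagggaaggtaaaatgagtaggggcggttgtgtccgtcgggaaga
Hjurp, chr1:88277530-88277729 (- strand): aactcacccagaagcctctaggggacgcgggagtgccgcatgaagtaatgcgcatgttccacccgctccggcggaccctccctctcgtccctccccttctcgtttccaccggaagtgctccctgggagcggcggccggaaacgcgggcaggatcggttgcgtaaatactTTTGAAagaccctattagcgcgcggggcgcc
Nuf2, chr1:169531415-169531614 (- strand): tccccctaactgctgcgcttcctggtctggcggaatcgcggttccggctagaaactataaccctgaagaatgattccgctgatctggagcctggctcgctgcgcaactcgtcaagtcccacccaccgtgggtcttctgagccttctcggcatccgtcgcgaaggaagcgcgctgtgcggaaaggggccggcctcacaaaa
Cenpb, chr2:131180018-131180217 (- strand): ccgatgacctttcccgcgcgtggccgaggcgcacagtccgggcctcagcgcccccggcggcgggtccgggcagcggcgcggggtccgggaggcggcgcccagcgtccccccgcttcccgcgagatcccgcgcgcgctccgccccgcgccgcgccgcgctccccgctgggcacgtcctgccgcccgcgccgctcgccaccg

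In Cenpf and Cenpa a pair of CCAAT elements lies before the start and a single TTTGAA just after it. In Kntc1 a CCAAT and a reversed TTTGAA share a base, which leaves 1 run of capitals. Ndc80 has a reversed TTTGAA after its start and no CCAAT. Nuf2, the member with the largest difference between metastatic and primary tumors, has neither letter string in its window, and Cenpb, the only member of this set whose mean was lower in metastatic tumors, has neither. Split by the fitted metastatic to primary difference at a log2 of 0.5, TTTGAA was in 8 of 17 members at or above it (47.1%) and in 4 of 12 below it (33.3%), while CCAAT was in 13 of 17 (76.5%) and in 7 of 12 (58.3%). Both together were nearly level, in 6 of 17 (35.3%) and in 4 of 12 (33.3%). The E2F element was in 2 of 17 (11.8%) and in 2 of 12 (16.7%). These are matches of letters in a fixed window and say nothing of binding.

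Total counts ranged from 20905806 to 91886163 per tumor, and metastatic CR2 and primary CR2 were the shallowest. In primary CR2 the members had between 4 counts (Cenpm) and 900 counts (Cenpb), so the values of the rarer members are the least precise there. Values are normalized read counts, in which each tumor's TMM-corrected total was brought to the mean of the 8. Of the epithelial markers, Krt8 had 2159 to 42146 normalized reads, whereas Krt18, Epcam and Cdh1, which also define epithelium, were low, with at most 41, 22 and 38 counts in any tumor and 0 counts of Epcam in primary CR2. In CPM (counts scaled to a common library total), the 5 macrophage markers summed to between 184 and 449.7 in the tumors and the 3 lung markers to at most 0.167. The liver marker Alb had 30.3, 11, 0 and 61.7 normalized reads in primary AS1, AS2, CR1 and CR2 and 59.4, 19.2, 172 and 189 in metastatic AS1, AS2, CR1 and CR2. Its metastatic to primary log2 fold change was 2.19 (SE 1.12, edgeR adjusted p = 0.9965). Ttr, higher than Alb in every tumor but metastatic CR1, where it had 132, had a log2 fold change of -1.49 (SE 0.55, edgeR adjusted p = 0.9965). The part of other tissue in the members' values was not tested.

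Primary CR1 stood apart from the other primary tumors in these genes. It was the highest of the 4 primary tumors for 27 of 33 members, and primary AS2 or primary CR2 was the lowest for 16 and 11 members. Among the metastases, metastatic CR2 was the highest for 19 members and metastatic CR1 the lowest for 20. Over all 8 tumors the highest value was in metastatic CR2 for 17 members and in primary CR1 for 6, so the highest and the lowest tumors did not divide by tumor type alone. These orders were not counted over all genes, so whether they are particular to the members was not tested. No gene was targeted in these tumors, so their labels could not be checked by the expression of a targeted gene. Values without primary CR1 are given beside the counts below, a choice made after its values were seen. Separations of the groups without it describe the values and are no test, and their share over all genes was not counted.

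**Figure D1:**
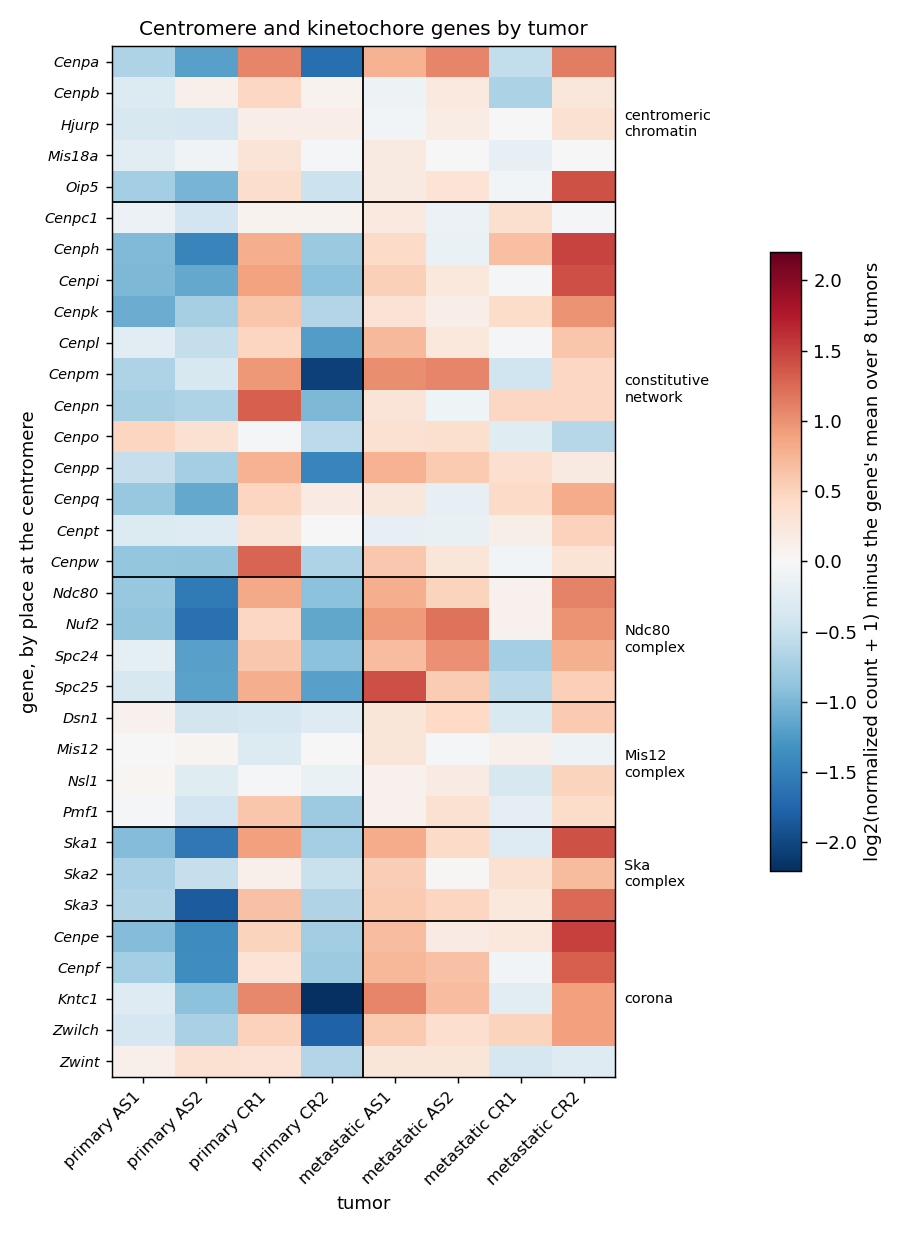
Heat map of the 33 members (down, by place at the centromere) in the 8 tumors (across), as log2(normalized count + 1) minus the gene's mean over the 8 tumors. Primary AS1, AS2 and CR2 are mostly blue and primary CR1 and metastatic CR2 mostly red, while 10 members (Mis18a, Mis12, Hjurp, Cenpc1, Cenpt, Nsl1, Dsn1, Zwint, Cenpo and Cenpb) span at most 2.22-fold and stay pale.

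The first comparison asked whether these genes differ between metastatic and primary tumors. No member passed the adjusted threshold (edgeR quasi-likelihood test, Benjamini-Hochberg adjusted p under 0.05), as was the case for all 17104 genes (0%). The fitted log2 fold change was above 0 for 30 of 33 members, with a median of 0.78 against -0.03 over all genes tested, and it ranged from -0.15 to 1.43 with a median SE of 0.43. At an unadjusted p under 0.05, 5 members were higher in metastatic tumors (Cenpf, Ska2, Nuf2, Cenpe and Zwilch) and none lower, where 1.56% of all genes were higher, and DESeq2 gave 0 members at the adjusted and 8 at the unadjusted threshold, where it had 2.23% of all genes higher. No member had all 4 metastases above all 4 primary tumors, a pattern seen in 0.854% of all genes.

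Left out one at a time, the 8 tumors gave between 3 and 21 members higher at the unadjusted threshold, and the 21 came without primary CR1. Without it the median log2 fold change of the members was 1.29, still no gene passed the adjusted threshold in edgeR (0% of 17393), and 3.48% of all genes were higher at the unadjusted one. DESeq2 then gave 15 of 33 members higher and none lower at the adjusted threshold, among 0.972% of all genes higher, and it gave 0 members when any of the other 7 tumors was left out. Those 15 were Cenpa, Cenph, Cenpi, Cenpk, Cenpn, Cenpp, Cenpw, Ndc80, Nuf2, Ska1, Ska2, Ska3, Cenpe, Cenpf and Zwilch, and Ccdc99 was called as well. With phenotype as a covariate in all 8 tumors, 12 members were higher at the unadjusted threshold, against 2.75% of all genes.

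**Figure D2:**
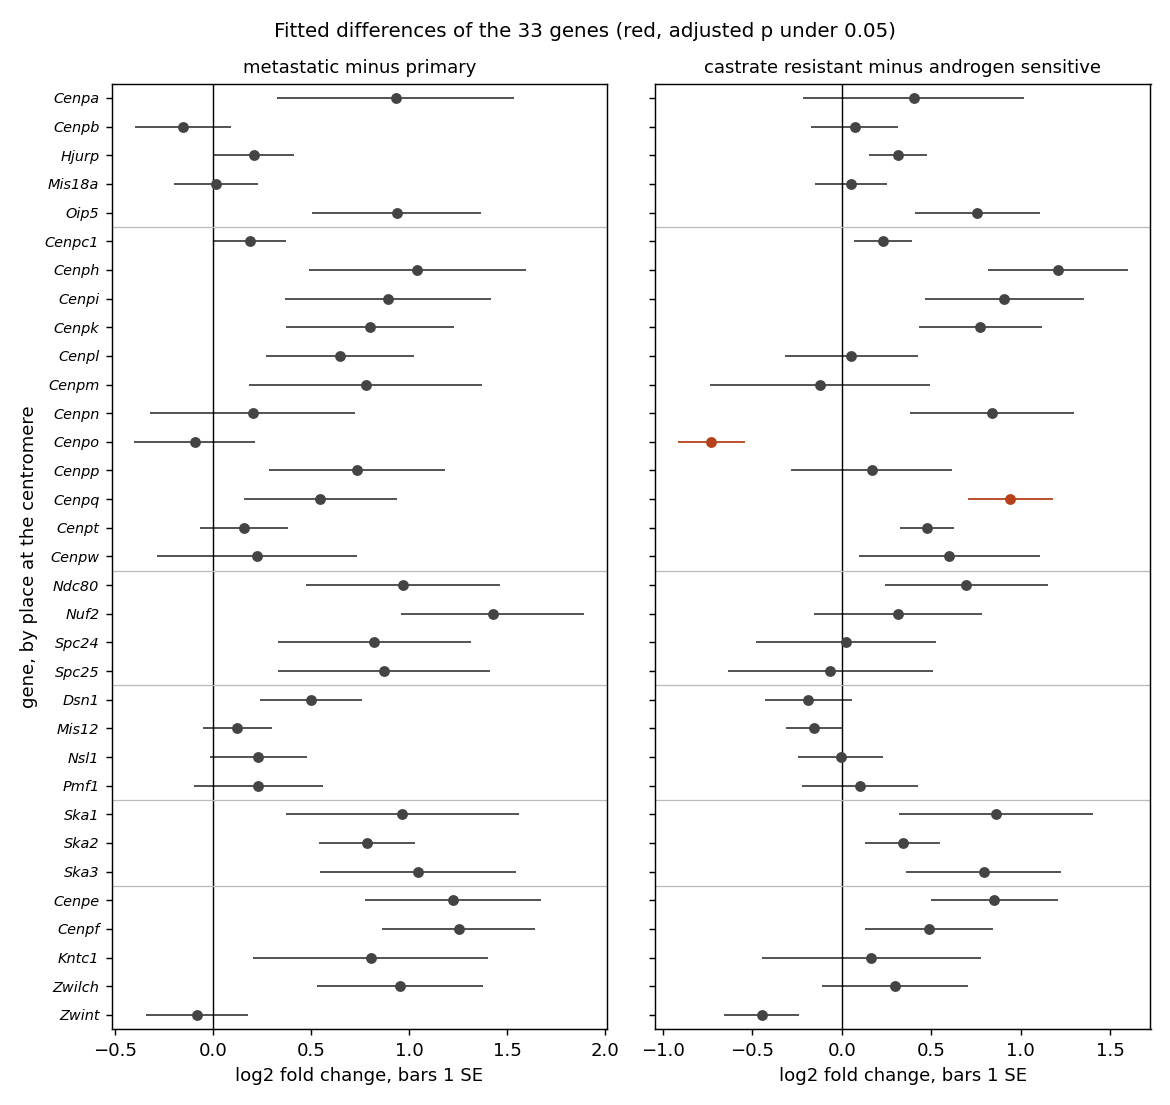
Fitted log2 fold change of each of the 33 members, metastatic minus primary (left) and castrate resistant minus androgen sensitive (right), with bars of 1 SE, from edgeR fits over 8 tumors. On the left 30 of 33 points lie above 0 and none is red, and on the right Cenpq and Cenpo are the 2 members with an adjusted p under 0.05 (red), on opposite sides of 0.

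The genes of centromeric chromatin and its loading were of 2 kinds. Cenpa encodes CENP-A itself and lies at chr5:30666777-30674830 (mm10, GENCODE M21). Its normalized read count was 203, 142, 686 and 103 in primary AS1, AS2, CR1 and CR2, and 553, 688, 224 and 715 in metastatic AS1, AS2, CR1 and CR2. Primary CR1 lay with the 3 high metastases and metastatic CR1 close to primary AS1, so the groups overlapped. The mean was 284 ± 272 (SD, n = 4) in primary and 545 ± 226 (SD, n = 4) in metastatic tumors, the fitted log2 fold change was 0.93 (SE 0.60), and the exact two-sided permutation test gave p = 0.1714. Without primary CR1 every metastasis exceeded every primary tumor, and the log2 fold change was 1.85 (SE 0.44). Oip5, part of the Mis18 complex that licenses CENP-A loading, was similar, at 107, 88, 236 and 129 in the primary and 207, 222, 172 and 479 in the metastatic tumors in the same order, with a log2 fold change of 0.94 (SE 0.43).

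Hjurp, the chaperone that brings CENP-A to the centromere (chr1:88262471-88277633), differed far less, with 609, 603, 861 and 867 normalized reads in the primary and 750.0, 879, 782 and 986 in the metastatic tumors, again in the order AS1, AS2, CR1, CR2. Both primary CR tumors were close to the metastases and both primary AS tumors were lower. Its mean was 735 ± 149 (SD, n = 4) in primary and 849 ± 106 (SD, n = 4) in metastatic tumors, with a log2 fold change of 0.21 (SE 0.20) and an exact permutation p of 0.2286. Mis18a, another Mis18 subunit, had a log2 fold change of 0.02 (SE 0.21). Cenpb, which encodes a protein that binds a DNA motif in the centromeric satellite (chr2:131175182-131180067), had 2048, 2718, 3437 and 2646 normalized reads in the primary and 2334, 2904, 1546 and 2990.2 in the metastatic tumors. Metastatic CR1 was the lowest tumor and primary CR1 the highest, the log2 fold change was -0.15 (SE 0.24), the exact permutation p was 0.5714, and the sign of the difference turned without metastatic CR1. Cenpa spanned a 6.95-fold range over the 8 tumors, Hjurp 1.63-fold and Mis18a 1.43-fold.

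Of the 12 members of the constitutive network, 11 had a fitted log2 fold change above 0, with a median of 0.60. None passed the unadjusted threshold, where 1.56% of all genes were higher. Cenpc1, whose protein links CENP-A nucleosomes to the outer kinetochore (chr5:86012024-86065583), had 1322, 1080.1, 1527 and 1517 normalized reads in the primary and 1663, 1310.5, 1830.4 and 1396 in the metastatic tumors. The groups overlapped broadly, with 1361 ± 209.9 (SD, n = 4) in primary and 1549.9 ± 239.8 (SD, n = 4) in metastatic tumors, a log2 fold change of 0.19 (SE 0.18) and an exact permutation p of 0.2857. Cenpt, whose protein is the other link to the Ndc80 complex, was as even, with a log2 fold change of 0.16 (SE 0.22). Cenpw, the histone-fold partner of Cenpt, had 83.3, 82, 368 and 94.1 normalized reads in the primary and 226, 181, 144 and 186 in the metastatic tumors. Its primary CR1 value was the highest of the 8 and the other 3 primary values were the lowest 3. Its log2 fold change of 0.23 (SE 0.51) became 1.09 (SE 0.27) without that tumor.

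Cenph, Cenpi and Cenpk, with Cenpm, form a subcomplex at the core of the network. Cenph had 63.4, 44.8, 219 and 70.5 normalized reads in the primary and 167, 113, 198 and 353 in the metastatic tumors with a log2 fold change of 1.04 (SE 0.55). Cenpi and Cenpk had log2 fold changes of 0.89 (SE 0.53) and 0.80 (SE 0.43). For these 3 genes primary CR1 lay among the metastases and the other 3 primary tumors lay below every metastasis. Cenpm had 32.2, 40.6, 102 and 11.8 normalized reads in the primary and 106, 110.5, 38.2 and 72 in the metastatic tumors, from as few as 4 counts, and a log2 fold change of 0.78 (SE 0.59). Cenpn and Cenpl, which form a pair that contacts the CENP-A nucleosome, had log2 fold changes of 0.20 (SE 0.52) and 0.65 (SE 0.38). Cenpo, Cenpp and Cenpq belong to 1 subcomplex of the network and had log2 fold changes of -0.09 (SE 0.31), 0.74 (SE 0.45) and 0.55 (SE 0.39). Cenpo was nearly level, with 689.9, 628, 489.5 and 332 normalized reads in the primary and 631, 638, 415 and 323 in the metastatic tumors, and the sign of its difference turned when any of 4 tumors was left out.

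The Ndc80 complex, the main microtubule receptor of the kinetochore, had all 4 subunits on the same side. Their log2 fold changes lay between 0.82 and 1.43, with a median of 0.92. Ndc80 (chr17:71496100-71526857) had 191, 115, 602 and 182 normalized reads in primary AS1, AS2, CR1 and CR2 and 588, 474, 361 and 723 in metastatic AS1, AS2, CR1 and CR2. All 4 metastases lay above the 3 primary tumors other than CR1, and metastatic CR2 was the highest. The mean was 273 ± 222 (SD, n = 4) in primary and 537 ± 155 (SD, n = 4) in metastatic tumors, with a log2 fold change of 0.97 (SE 0.49) and an exact permutation p of 0.1143. Nuf2, its coiled-coil partner (chr1:169497934-169531464), had 117, 68.5, 298 and 97 and 413, 496, 231 and 429.7 in the same order, and 15 of the 16 pairs of a metastasis and a primary tumor had the metastasis higher. Its log2 fold change of 1.43 (SE 0.47) was the largest among the members (adjusted p = 0.9965, edgeR). Spc24 and Spc25, the pair that docks the complex on the kinetochore, had log2 fold changes of 0.82 (SE 0.49) and 0.87 (SE 0.54), and for both metastatic CR1 lay below primary CR1 and primary AS1.

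The Mis12 complex, which joins the inner kinetochore to Ndc80, differed little between tumor types. Its 4 subunits had log2 fold changes between 0.13 and 0.50, with a median of 0.23. Dsn1 (chr2:156995265-157007154) had 325, 229, 234 and 249.9 normalized reads in the primary and 365, 412, 239 and 449.5 in the metastatic tumors. Metastatic CR1 lay with the primary tumors, and here primary CR1 was not raised. Its mean was 259 ± 44.4 (SD, n = 4) in primary and 367 ± 91.5 (SD, n = 4) in metastatic tumors with a log2 fold change of 0.50 (SE 0.26) and an exact permutation p of 0.0857. Mis12 itself had 788, 815, 636 and 776 and 945, 769.8, 850.1 and 723, a span of 1.48-fold over the 8 tumors with no order by group. Nsl1 and Pmf1 had log2 fold changes of 0.23 (SE 0.25) and 0.23 (SE 0.33).

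The Ska complex tracks microtubule ends and stabilizes their hold. Ska1, its microtubule-binding subunit, had 30.3, 19.5, 113 and 35.3 normalized reads in the primary and 106, 80.2, 48.6 and 159 in the metastatic tumors. Primary CR1 was second only to metastatic CR2, the log2 fold change was 0.97 (SE 0.59), and the exact permutation p was 0.2. Ska2 (chr11:87109234-87124635) had 328, 376, 578 and 382 and 776, 546, 680.1 and 869, with a log2 fold change of 0.78 (SE 0.25) (adjusted p = 0.9965, edgeR). Only primary CR1 and metastatic AS2 were out of order in Ska2, and it was the single member whose metastases exceeded the primary tumors within each phenotype. Of its exonic bases 10.1% lie under Gm11491 on the opposite strand, whose reads cannot be set apart because the counting was not stated to use strand. Ska3 had a log2 fold change of 1.05 (SE 0.50) and an 8.67-fold range over the tumors.

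In the corona and checkpoint platform, 3 of 5 members were higher in metastatic tumors at the unadjusted threshold, where 1.56% of all genes were, and none passed the adjusted one. Cenpf, a large coiled-coil protein that gathers at kinetochores before mitosis (chr1:189640606-189688086), had 851, 551, 1754 and 817 normalized reads in the primary and 2358, 2220.3, 1365 and 3529 in the metastatic tumors. Every metastasis exceeded the 3 primary tumors other than CR1, and only metastatic CR1 fell short of primary CR1. Its mean was 993 ± 525 (SD, n = 4) in primary and 2368 ± 889.8 (SD, n = 4) in metastatic tumors, its log2 fold change was 1.25 (SE 0.39) (adjusted p = 0.9965, edgeR), and its exact permutation p was 0.0571, where 0.0286 is the smallest that 70 arrangements allow. Cenpe, the kinesin that moves chromosomes to the spindle equator (chr3:135212537-135273611), had 522, 387, 1420.4 and 597 and 1631, 1145, 1194 and 2878, a log2 fold change of 1.22 (SE 0.45) and an exact permutation p of 0.0857. Metastatic CR2 was the highest tumor for both genes.

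Kntc1 encodes ROD, the scaffold of the RZZ complex that recruits checkpoint proteins (chr5:123749716-123821593). It had 247, 161, 629 and 61.7 normalized reads in the primary and 635, 484, 253 and 561 in the metastatic tumors, a 10.3-fold range and the widest of the members, in which the low end rests on 21 counts in primary CR2. Its log2 fold change was 0.80 (SE 0.60) and its exact permutation p was 0.2. Zwilch, another RZZ subunit, had 157, 123, 290.4 and 58.8 and 302, 264, 285 and 382 and a log2 fold change of 0.95 (SE 0.42). Zwint, which tethers the RZZ complex to the kinetochore (chr10:72654845-72674964), had 3778, 4419, 4364 and 2225 in the primary and 4193, 4179, 2719 and 2878 in the metastatic tumors, with a log2 fold change of -0.08 (SE 0.26). Zwint did not follow the other 4, and primary CR2, metastatic CR1 and metastatic CR2 were its 3 lowest values. Spdl1, the dynein adaptor of the corona that is listed as Ccdc99, had 142, 135, 383 and 79.4 and 395, 242, 238 and 305 with a log2 fold change of 0.66 (SE 0.46). Over the 10 members tested by exact permutation, p ranged from 0.0571 to 0.5714 and none was under 0.05.

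**Figure D3:**
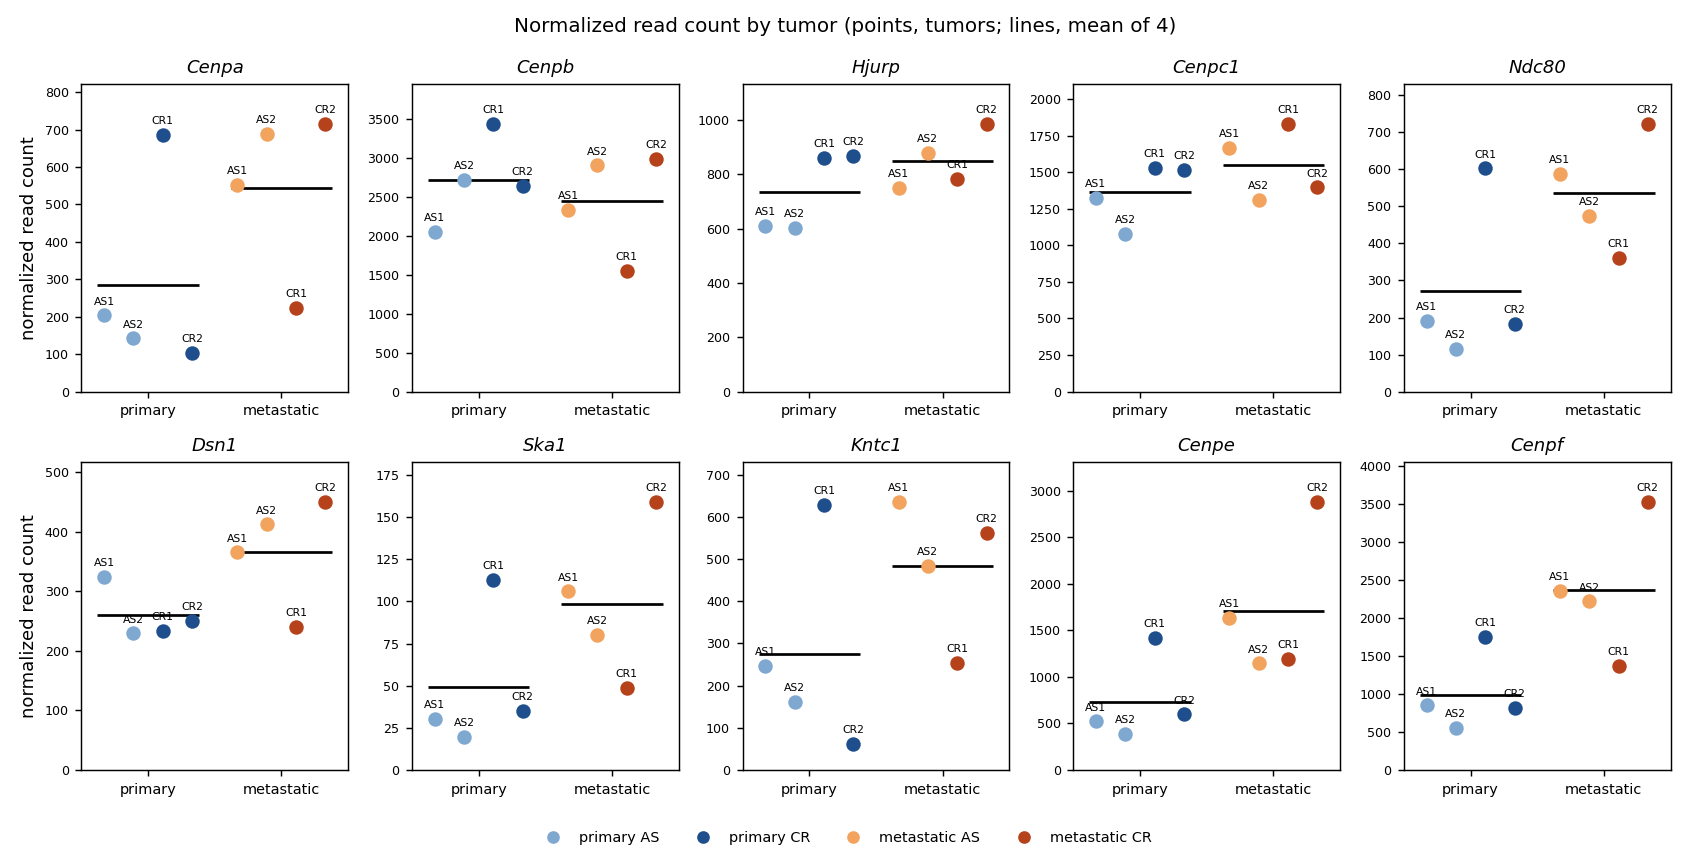
Normalized read count of 10 members in each tumor (points, coloured by group and labelled AS1, AS2, CR1 or CR2), with the mean of 4 tumors as a line. In Cenpa, Ndc80, Ska1, Kntc1, Cenpe and Cenpf primary CR1 lies well above the other 3 primary tumors, and the 2 groups overlap in every panel.

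Levels were compared between genes only as normalized reads per kilobase of exon. Zwint was the highest member at 811 per kilobase on average over the tumors, followed by Cenpb at 528, Cenpt at 272, Mis12 at 262 and Cenpc1 at 258. Cenpk was the lowest at 18.8 and Ska1 next at 27.7. Those 5 highest members were also among the 10 with the smallest span over the tumors, whereas Cenpf stood at 109, Ndc80 at 62.3 and Kntc1 at 47.5. Exons of 11 members overlap those of another listed gene, by 0.219% to 22.5% of their bases.

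The metastatic to primary difference was then taken within each phenotype, with 2 tumors against 2. In the AS tumors both metastases exceeded both primary tumors in 28 of 33 members, where 19.1% of all genes did, and no member had both below. In the CR tumors only Ska2 did so, where 12.6% of all genes did. The median log2 fold change was 1.16 in AS, against 0.000672 over all genes, and 0.26 in CR, against -0.01 over all genes. Within AS, 22 members were higher at the unadjusted threshold, against 4.28% of all genes, and none at the adjusted one (0% of 17466 genes). Within CR, 0 members were higher at the unadjusted threshold, against 0.915% of all genes, and none passed the adjusted one (0% of 15961 genes), and DESeq2 was not run within phenotypes.

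Nuf2 had the largest difference in AS, 2.31 (SE 0.32), and 0.77 (SE 0.66) in CR. Ndc80 had 1.81 (SE 0.31) in AS and 0.50 (SE 0.66) in CR, and Cenpa had 1.86 (SE 0.27) and 0.28 (SE 0.94). Cenpw was positive in AS, 1.32 (SE 0.27), and negative in CR, -0.46 (SE 0.70). Cenpe had 1.63 (SE 0.26) in AS and 1.06 (SE 0.58) in CR, the largest in CR. The SE in CR was wider for these 5 genes than in AS, and primary CR1 was above primary CR2 and metastatic CR2 above metastatic CR1 in each. The test of the difference between phenotypes (edgeR, product term) called no member and no gene at the adjusted threshold (0%). It also called 0 members at the unadjusted one, where 2.88% of all genes were called, and DESeq2 gave 0 members at the adjusted and 1 at the unadjusted threshold, where it called 3.19% of all genes. That count was not stable, with 10 members lower at the unadjusted threshold when every gene of at least 1 count was kept (2.61% of all genes lower), 10 without primary CR2 (8.57%) and 4 without metastatic CR2 (1.55%). The product term was below 0, a smaller difference in CR than in AS, for 30 of 33 members, with a median of -0.58 against -0.06 over all genes and a median SE of 0.73. Cenpw (-1.81, SE 0.81) and Nuf2 (-1.58, SE 0.79) came nearest to the unadjusted threshold among the members, and the edgeR adjusted p was 0.9532 for both. Without primary CR1 the median of the product term was 0.10 and without primary CR2 it was -1.02, so it turned on single tumors.

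**Figure D4:**
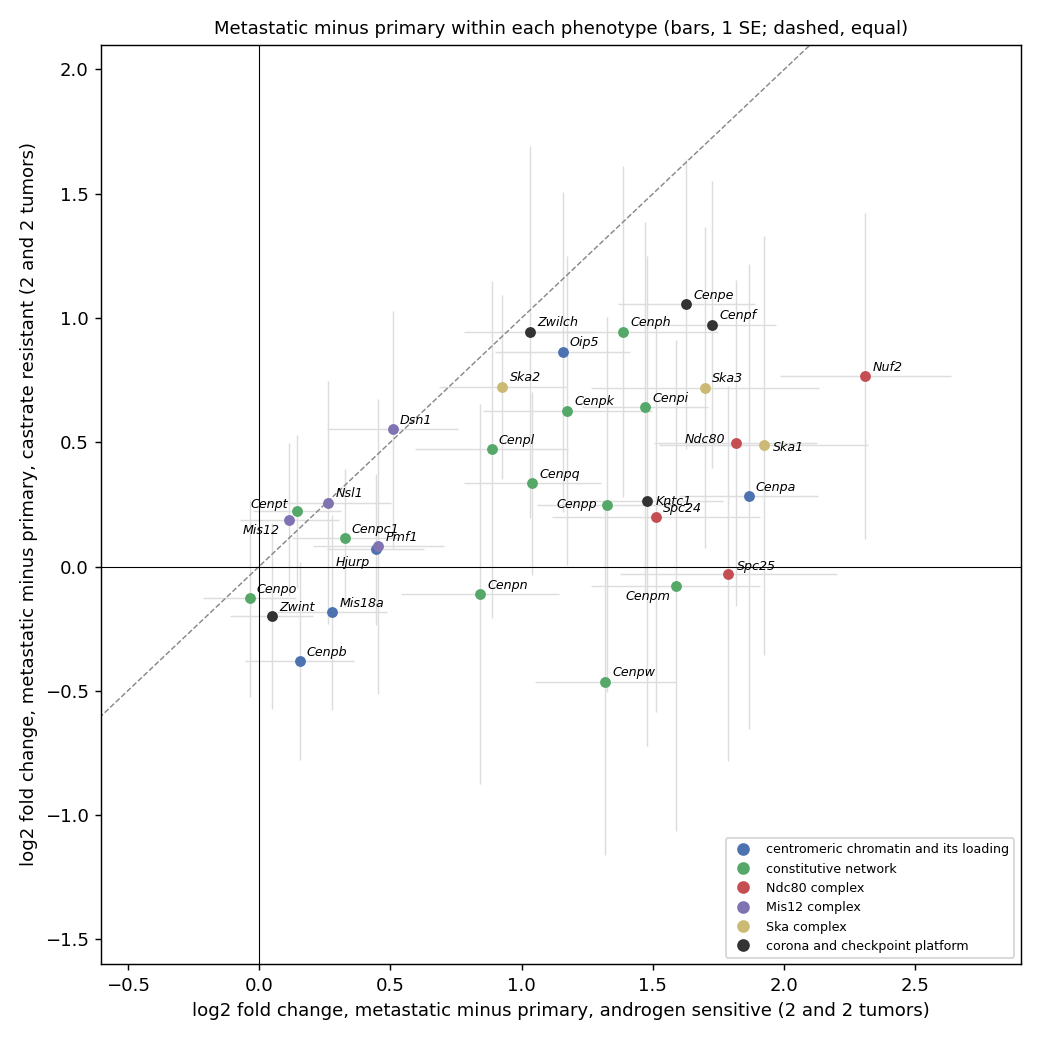
Metastatic minus primary log2 fold change of each member in the androgen sensitive tumors (x) and in the castrate resistant tumors (y), with bars of 1 SE, coloured by place at the centromere. Most points lie below the dashed line of equality, with Nuf2 farthest right and Cenpw lowest, and the bars are longer in the castrate resistant direction.

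The second comparison asked whether the genes differ between CR and AS tumors, with tumor type as a covariate. In all, 1 member was higher in CR and 1 was lower, where 6.16% of all genes were higher and 6.01% lower. DESeq2 called 3 members higher and 1 lower, where it had 11% of all genes higher and 9.68% lower. The median log2 fold change of the members was 0.31, against -0.01 over all genes, and 26 of 33 were above 0. Without primary CR1 the median was -0.07, 15 of 33 were above 0, and 1 member was higher and 2 were lower, where 10.4% of all genes were higher and 13.3% lower. Cenpt was the 1 member with all CR tumors above all AS tumors (9.09% of all genes) and Cenpo the 1 member with all CR tumors below (9.82% of all genes).

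Both members past the threshold belong to the subcomplex of Cenpo, Cenpp and Cenpq, and they differed in opposite directions. Cenpq (chr17:40923051-40935047) had 185, 152, 393 and 294 normalized reads in primary AS1, primary AS2, metastatic AS1 and metastatic AS2, and 459, 376, 444 and 584 in the CR tumors in the same order. Only metastatic AS1 reached into the CR range, and Cenpq was higher in CR by a log2 fold change of 0.94 (SE 0.24, adjusted p = 0.0366). Cenpo (chr12:4196004-4234294) had 689.9, 628, 631 and 638 in the AS and 489.5, 332, 415 and 323 in the CR tumors in that order. All 4 CR tumors lay below all 4 AS tumors, with a log2 fold change of -0.73 (SE 0.19, adjusted p = 0.0385). Of Cenpo's exonic bases 22.5% lie under exons of Adcy3 and Ptrhd1 on the opposite strand, and the counting was not stated to use strand. Looked up after this was seen, those genes had log2 fold changes of -0.41 (SE 0.27, adjusted p = 0.35) and -0.18 (SE 0.14, adjusted p = 0.406), and their part in the Cenpo value was not tested. Cenpp, of the same subcomplex, had 0.17 (SE 0.45, adjusted p = 0.837).

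Within primary tumors the log2 fold change was 1.31 for Cenpq (adjusted p = 0.348) and -0.67 for Cenpo (adjusted p = 0.539), and within metastatic tumors it was 0.59 (adjusted p = 0.239) and -0.77 (adjusted p = 0.112), the signs holding in both. Each call was lost when any of the 4 AS tumors, primary CR2 or metastatic CR2 was left out, and that of Cenpo also without metastatic CR1. Without primary CR1 the log2 fold change was 0.80 (SE 0.22, adjusted p = 0.0343) for Cenpq and -0.87 (SE 0.17, adjusted p = 0.00968) for Cenpo. In the fits with 1 tumor left out that lost the call, the adjusted p lay between 0.0623 and 0.113 for Cenpq and between 0.0777 and 0.118 for Cenpo. Without a covariate 0 members were called higher in CR, where 6.02% of all genes were, so the Cenpq call was lost there as well.

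Other members are described by their values, since none passed the threshold. Cenpt had 786, 798, 859 and 869 normalized reads in the AS tumors and 1182, 976, 1067 and 1388 in the CR tumors, with no overlap and a log2 fold change of 0.48 (SE 0.15, adjusted p = 0.0714). Cenph had a log2 fold change of 1.21 (SE 0.39, adjusted p = 0.0785), its largest AS value of 167 lying above only primary CR2 among the CR tumors. DESeq2 called both Cenpt (adjusted p = 0.0164) and Cenph (adjusted p = 0.0137). Zwint had 3778, 4419, 4193 and 4179 in the AS and 4364, 2225, 2719 and 2878 in the CR tumors, a log2 fold change of -0.45 (SE 0.21, adjusted p = 0.195), which passed at an adjusted p of 0.00839 without primary CR1. Mis12 had -0.15 (SE 0.16, adjusted p = 0.552) and Hjurp 0.31 (SE 0.16, adjusted p = 0.24). Cenpa, Cenpb and Kntc1 had 0.40, 0.07 and 0.16, and the sign of each turned without primary CR1.

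A further 32 genes of the kinetochore, its checkpoint and its kinases that are not members were counted in the same fits. Between metastatic and primary tumors none passed the adjusted threshold (0% of all genes), and the median log2 fold change was 0.64. At the unadjusted threshold 6 were higher and none lower, where 1.56% of all genes were higher. Without primary CR1 the median was 1.06 and 17 were higher at the unadjusted threshold, where 3.48% of all genes were. Sgol2, a guardian of centromeric cohesion, had 216, 117, 602 and 185 normalized reads in the primary and 629, 591, 503 and 1011 in the metastatic tumors, a log2 fold change of 1.28 (SE 0.49). Cdca8, a subunit of the chromosomal passenger complex, had 0.99 (SE 0.38). In the other direction, Stra13, the CENP-X subunit that also serves in DNA repair, had -0.43 (SE 0.26), and Ndel1, a dynein regulator, -0.05 (SE 0.17). Between CR and AS tumors none of the 32 was lower at the adjusted threshold, where 6.01% of all genes were. Without primary CR1, 4 were lower, where 13.3% of all genes were. Mad2l1 and Npm1 were among those higher in CR, where 6.16% of all genes were higher. Mad2l1, a core checkpoint protein, had 318, 266, 671 and 606 normalized reads in the AS and 859.7, 541, 847 and 1359 in the CR tumors, and was higher in CR by 1.03 (SE 0.23, adjusted p = 0.0275). Npm1, a nucleolar chaperone, was higher by 0.95 (SE 0.23, adjusted p = 0.0342). Without primary CR1 these were 0.82 (SE 0.20, adjusted p = 0.0208) for Mad2l1 and 0.89 (SE 0.24, adjusted p = 0.0333) for Npm1. Incenp, the scaffold of the passenger complex, and Zw10, of the RZZ complex, had -0.52 (SE 0.16, adjusted p = 0.0688) and -0.39 (SE 0.16, adjusted p = 0.142). The product term called none of the 32 at the adjusted threshold (0% of all genes) or at the unadjusted one (2.88% of all genes).

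Genes of DNA replication and mitosis that are not members had a like order over the tumors. The 20 proliferation genes, Mki67, Top2a, Pcna and 6 Mcm genes among them, had a median log2 fold change of 0.61 between metastatic and primary tumors. Of these 20, 4 were higher at the unadjusted threshold, where 1.56% of all genes were, and none at the adjusted one (0% of all genes). Without primary CR1 their median was 1.18 and 18 were higher at the unadjusted threshold, where 3.48% of all genes were. Their summed level was 296, 217, 706 and 239.5 CPM in primary AS1, AS2, CR1 and CR2, and 607, 541, 475 and 739 CPM in metastatic AS1, AS2, CR1 and CR2. Primary CR1 was thus at the level of metastatic CR2, and the other primary tumors lay below every metastasis. The members summed to 253, 251, 397 and 233 CPM in the primary and 389.8, 367, 286 and 442 CPM in the metastatic tumors in that order. Per 100 CPM of proliferation genes the members gave 85.5, 116, 56.2 and 97.4 CPM in the primary and 64.3, 67.8, 60.2 and 59.8 CPM in the metastatic tumors, but Zwint and Cenpb, the most abundant members and among the most even, gave 71.9 to 131 of the summed CPM. Without them the other members gave 52.3, 60.2, 37.6 and 63.1 CPM per 100 in the primary and 46.1, 45.7, 45 and 46.4 in the metastatic tumors. On the mean log2(CPM + 1) scale the members ran from 2.19 in primary AS2 to 3.27 in metastatic CR2 and the proliferation genes from 3.28 in primary CR2 to 4.79 in primary CR1. The part of the share of dividing cells in the members' values was not tested.

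**Figure D5:**
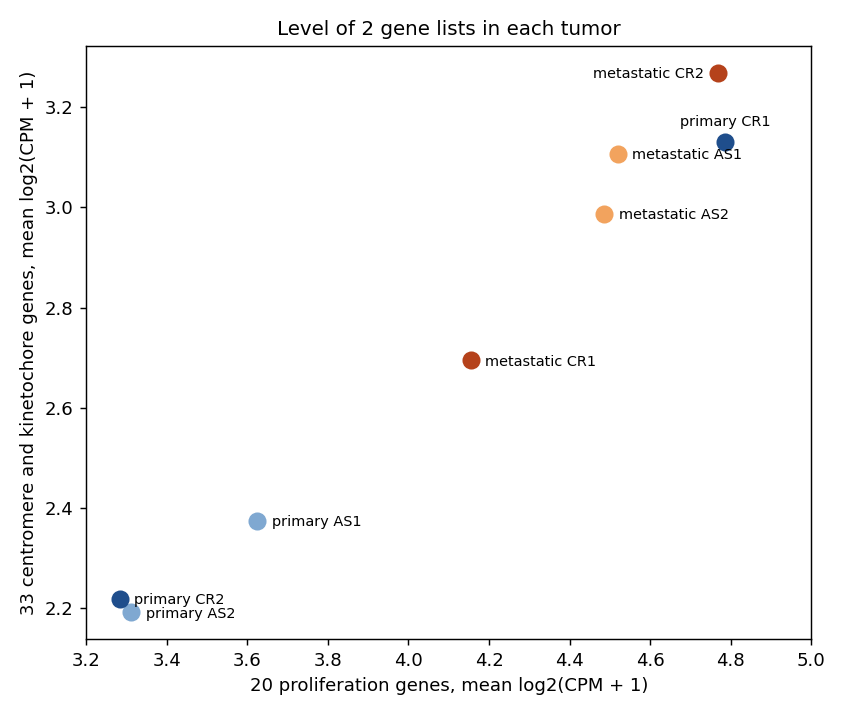
Mean log2(CPM + 1) of the 20 proliferation genes (x) and of the 33 members (y) in each tumor, coloured by group. Primary AS1, AS2 and CR2 lie at the lower left, primary CR1 lies beside metastatic AS1 and CR2 at the upper right, and metastatic CR1 lies between.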

How the data were processed

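Total RNA was extracted from 8 tumors with TRIzol and sequenced as stranded, ribosomal RNA depleted, paired-end libraries. The deposited values are raw read counts per gene, 1 table per tumor. The authors' methods name Bowtie, mm10 and uniquely mapped reads with at most 2 mismatches, while the submitters' processing notes list CASAVA 1.8.2, TopHat2 2.0 and GRCm38. The counting tool, its strand setting and the annotation release are not given in the sources used here. Total counts per tumor ranged from 20905806 to 91886163, which limits precision most for rare members in the CR2 tumors.

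Counts were filtered with filterByExpr, scaled by TMM and tested with the edgeR 4.0.16 quasi-likelihood test in R 4.3.3, with Benjamini-Hochberg adjustment over all genes tested and a threshold of 0.05. Metastatic and primary tumors were compared over all 8 tumors without a covariate, CR and AS tumors with tumor type as covariate, and the product term was fitted in a separate model. DESeq2 1.42.0, other filters and scalings, each tumor left out, and single phenotypes or tumor types served as alternatives. For 10 members chosen by name an exact two-sided permutation test of the mean normalized count was run. The members named in full are those 10 and, for each comparison, the 3 members with the smallest p in each direction (2 for the product term), and other members and genes were named after their values were seen. The edgeR script was tested on simulated counts. The members and the gene lists were chosen with earlier results of these data known. The labels call metastases matched but give no pairs, so no pairing entered the main tests, and the possible pairings were fitted only as alternatives. Some marker and gene results are not reported here. The study's own account counts fewer primary tumors than the labels give, without saying which, and all labelled tumors were used here.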

Additional observations from a re-analysis of the deposited data

Results flagged for a closer look

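Among the 132 groups of 4 tumors examined for the 33 members, 10 held 1 tumor far from the other 3 by Dixon's criterion. The criterion's rate of about 1 in 20 is for independent, normally distributed values. These groups share tumors, and many members vary together, so that rate sets no expectation for this count. Primary CR1 was the high tumor among the primary tumors for 7 members. Its normalized read count was 219 for Cenph (the next primary tumor had 70.5), 492 for Cenpi, 135 for Cenpk, 279.6 for Cenpn, 368 for Cenpw, 602 for Ndc80 and 113 for Ska1. Metastatic CR2 was the high tumor for Oip5 among the metastases, at 479 normalized reads with 222 in the next, and for Dsn1 among the CR tumors, at 449.5 with 249.9 in the next. Primary AS1 was the high tumor for Cenpo among the AS tumors, at 689.9 normalized reads with 638 in the next.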

How the results depend on the processing

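The metastatic to primary median of the members stayed above 0 in every alternative run, and no alternative but DESeq2 without primary CR1 called a member at the adjusted threshold. That fit, chosen after the data were seen, called 15 members, 22 at the unadjusted threshold, with a median log2 fold change of 1.30. The count of members higher at the unadjusted threshold was 8 with DESeq2 (2.23% of all genes higher), 12 with phenotype as a covariate, 22 in AS tumors only and 0 in CR tumors only, where the median was 0.263. Leaving out each tumor in turn gave counts of 3 to 21 and medians of 0.52 to 1.29, with the highest of both without primary CR1. The true pairing is not known because the labels do not say which primary tumor a metastasis matches. The 4 possible pairings within phenotype, each fitted as a block, gave 11, 17, 11 and 16 members higher at the unadjusted threshold. There 2.51% to 3.22% of all genes were higher, against 5 members and 1.56% of all genes without a block. In CR tumors only, 5 of 33 members turned sign, and 0 to 3 did with single tumors left out, and the cause was not tested. Among the members named in full, Cenpo with tumors left out ranged from -0.24 to 0.0675, Zwint from -0.24 to 0.0372 and Cenpb from -0.27 to 0.0314, and its mean difference from -490.2 to 30.5 normalized reads. In AS tumors only, Zwint was at 0.0487 and Cenpb at 0.154, and DESeq2 without primary CR1 gave Zwint 0.0103.

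For CR against AS tumors, the count of members called was 4 with DESeq2 (20.7% of all genes called), 4 with every gene of at least 1 count (9.72%), 4 at an adjusted p under 0.1 (20.1%), 1 without a covariate (11.1%), 0 in primary tumors only (0.0233%), 0 in metastatic tumors only (5.49%) and 0 to 3 with single tumors left out (2.76% to 23.8%), against 12.2% in the fit reported. Without primary CR1, 11 of 33 members turned sign. The median was 0.73 in primary tumors only and -0.0716 to 0.44 with tumors left out. Cenpb turned to -0.0296 with every gene kept and to -0.204 in metastatic tumors only, and Kntc1 to -0.0113 without a covariate and -0.459 in metastatic tumors only, where Cenpa was at -0.406. With tumors left out Cenpb ranged from -0.0753 to 0.294, Kntc1 from -0.87 to 0.494 and Cenpa from -0.54 to 0.83.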
